A study of Homo sapiens with 80 samples.

Results

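The genes of the short arm of chromosome 20 (20p) were followed in a line of anaplastic large cell lymphoma that had become resistant to lenalidomide. They were the rows of a nascent RNA table that start before 26 Mb on chromosome 20 and average at least 50 counts over its 6 libraries, leaving out CSNK2A1, TRIB3, NOP56 and PCNA. The rule took 136 of 17792 genes (19 further 20p rows had fewer counts). CSNK2A1, which encodes a catalytic subunit of casein kinase 2, lies among them at 0.48 Mb and gave the set its name. Positions are on hg38, which the submitters' processing notes name, and are the gene starts and ends of the deposited table. Just inside the count limit were LINC00652 (56.0 counts), TMEM239 (56.8) and NKX2-2-AS1 (68.8), and just outside it ENSG00000276952 (49.0), RN7SL498P (46.2) and RNA5SP474 (41.2).

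SU-DHL-1 is an established cell line of anaplastic large cell lymphoma that is ALK-positive, that is, it carries a fusion form of that kinase. Regrown cells were 3 pools selected separately by long culture in rising lenalidomide and then kept without drug for at least 2 months, and parental cells were the line before selection. PRO-seq, which maps engaged RNA polymerase along genes, covered 3 regrown and 3 parental libraries. Digital gene expression (DGE) covered regrown and parental cells after 18 h with 2.5 µM lenalidomide (LEN) or with DMSO, the vehicle. RNA-seq covered regrown and parental cells that carried Cas9 and an inducible guide against ZFP91, a zinc finger protein degraded under lenalidomide, after 96 h with 1 µg/ml doxycycline (labelled KO) or without it (labelled WT). A pair of further RNA-seq tables compared a CSNK2B vector (OE) with an empty vector (CON) in SU-DHL-1 and in KI-JK, another line of this lymphoma. Each group had 3 libraries, 42 in all, and the 38 ChIP-seq samples of the series were not analysed here. Regrown replicates were separate pools, but nothing in the labels says that parental replicates were separate cultures, so p-values measure the spread between these libraries.

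Genes that are neighbours on an arm mostly have unrelated functions, and each is switched by its own promoter. The telomeric side of 20p holds genes for RNA splicing (SNRPB), protein degradation (PSMF1, NSFL1C), antiviral signalling (MAVS), centromere binding (CENPB) and the citrate cycle (IDH3B). Closer to the centromere lie genes such as XRN2, a nuclear exonuclease, SEC23B, a coat protein of transport vesicles, and CST3, which encodes the protease inhibitor cystatin C. A level of nascent RNA reports transcription, while the level in RNA-seq or DGE also depends on how long the RNA lasts. No DNA measurement was analysed here, and in these bulk samples fewer expressing cells and less RNA per cell cannot be told apart.

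Libraries held 33467869 to 47199672 counts in PRO-seq, 14444523 to 28927808 in RNA-seq and 41571 to 395827 in DGE, where the lowest was a parental LEN library. Levels are in CPM, gene counts scaled to library size, after TMM scaling. SU-DHL-1 RNA-seq libraries with the ZFP91 guide expressed the lymphoma markers TNFRSF8 (the CD30 gene) and ALK (group means of 543 to 610 CPM). TNFRSF8 averaged 326 and 330 CPM in the regrown and 526 and 586 CPM in the parental groups. Over all these groups CD3E, CD4, CD8A, CD2 and MS4A1 averaged at most 0.117 CPM, but CD3D, another T-cell marker, averaged 27.1 to 46.9 CPM. CSF1R, a myeloid receptor gene, had means of 7.07 CPM in both regrown groups, against 12.3 and 15.4 CPM in parental groups. The other myeloid markers of the list, CD14, LYZ and CD68, averaged at most 0.122 CPM in these groups. ZFP91 RNA was at 77.9 to 101 CPM in regrown KO against 86.9 to 97 CPM in regrown WT libraries, which overlapped, and at 86.6 to 89.9 CPM in parental KO against 109 to 115 CPM in parental WT libraries. A Cas9 cut need not lower RNA, so these values do not check the labels. CSNK2B had 244 to 257 CPM with its vector against 29.2 to 31.0 CPM with the empty vector in SU-DHL-1, and 76.9 to 81.5 against 15.6 to 18.3 CPM in KI-JK.

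In PRO-seq the genes from the first member to SLX4IP lay below parental as a block, and the genes from there to the centromere did not. The end was read as the first gene, going from the telomere, at which the running median of 9 genes on chromosome 20 was above -0.5 on the log2 scale. It fell between SLX4IP, which ends at 10.63 Mb, and ENSG00000286087, which starts at 12.94 Mb. The single split that left the smallest summed absolute deviations fell in the same place. This leaves 71 distal genes (before the end, towards the telomere) and 65 proximal genes (after it). The median log2 change, regrown over parental, was -0.84 over the distal genes, 0.01 over the proximal genes and 0.03 over the 298 genes of chromosome 20 beyond 26 Mb, against 0.02 over all genes. PRO-seq changes chose this set, so they are a description and were not tested.

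**Figure D1:**
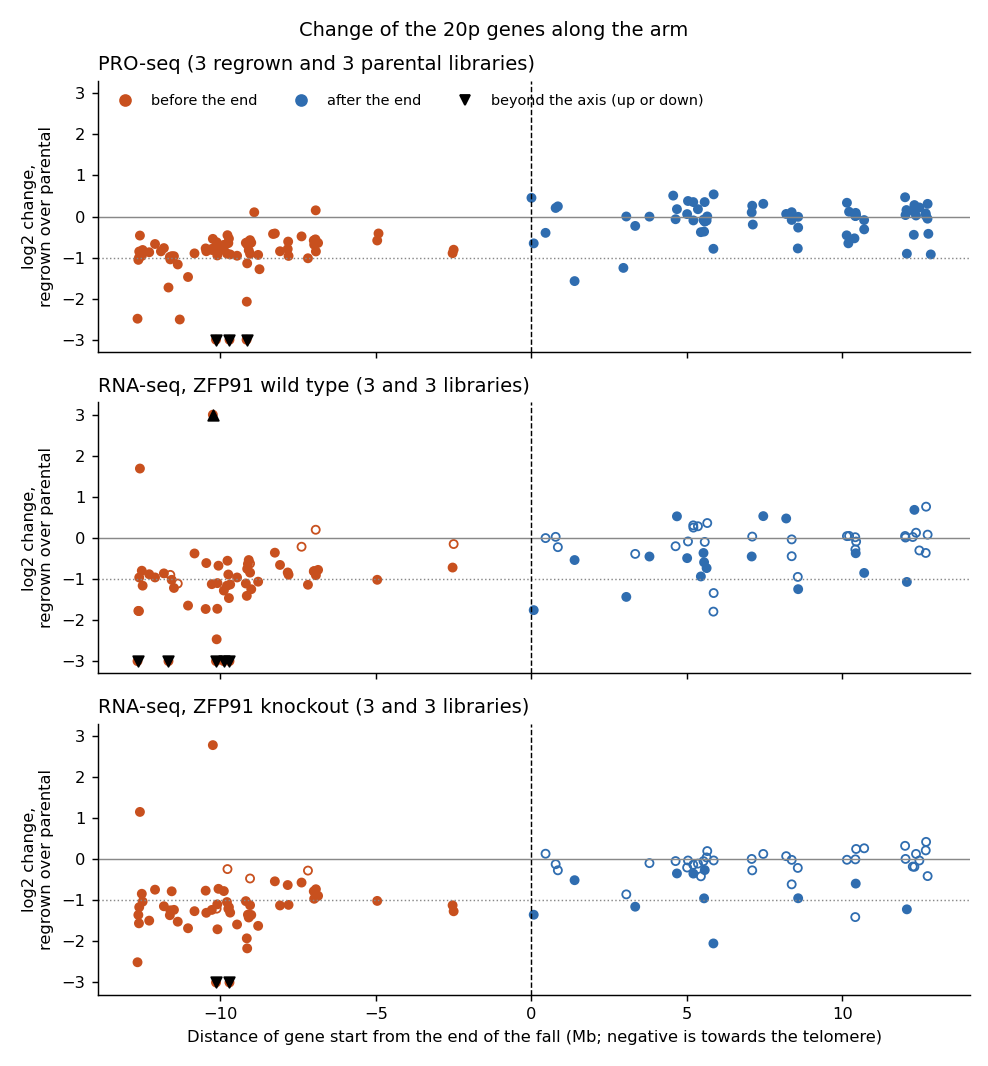
Log2 change of each 20p gene, regrown over parental, against the distance of its start from the end of the fall (Mb), in PRO-seq and in RNA-seq of WT and KO cells; orange is distal and blue proximal, filled circles in RNA-seq passed adjusted p under 0.05, and triangles are values past 3. Distal genes scatter around -0.84 in PRO-seq, -0.96 in RNA-seq WT and -1.14 in RNA-seq KO, and proximal genes around 0.01, -0.15 and -0.12.

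No member starts in the 2.31 Mb between SLX4IP and ENSG00000286087. SLX4IP, which encodes a partner of the SLX4 nuclease scaffold, had 49.1, 44.8 and 41.1 CPM in regrown and 78.6, 89.1 and 68.4 CPM in parental PRO-seq libraries. MKKS, a chaperonin-like gene next to it, had 22.2 to 22.8 CPM in regrown and 37.8 to 44.7 CPM in parental libraries. Both lay wholly below parental. Past the gap the pattern was mixed over 3 genes. ENSG00000286087 was low throughout, with 1.81 to 3.59 CPM in regrown and 1.89 to 2.19 CPM in parental libraries, which overlapped. SPTLC3, a subunit gene of the enzyme that starts sphingolipid synthesis, had 233, 260 and 302 CPM in regrown and 411, 474 and 366 CPM in parental libraries, a log2 change of -0.65. TASP1, which encodes the protease that cuts MLL, had 174, 149 and 147 CPM in regrown and 203, 235 and 180 CPM in parental libraries, a change of -0.40. These 2 genes were still wholly lower in regrown cells, as 22.8% of all genes were. ESF1, a ribosomal RNA processing gene that starts at 13.71 Mb, had 131, 127 and 130 CPM in regrown and 122, 114 and 99.6 CPM in parental libraries, so it and NDUFAF5, a complex I assembly gene after it (0.25), were wholly higher. In this PRO-seq description TASP1 was the last of these neighbours below parental, while the running median put the end before ENSG00000286087. The same contrast set the boundary, so no tested end is read from these genes.

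The position depended on the pool, the assay, the method and the window. Taken alone, pool 1 put the end at ESF1 (13.71 Mb), pool 2 at 12.94 Mb and pool 3 already at TMX4-AS1 (8.02 Mb). The single split put it at TASP1 (13.39 Mb) in pool 1, at KIF16B (16.27 Mb) in pool 2 and at 12.94 Mb in pool 3, so the methods differed by several Mb in pools 2 and 3. RNA-seq, in which fewer genes could be tested, put it at ESF1 in WT cells and at FLRT3 (14.32 Mb) in KO cells, and DGE put it at SPTLC3 (13.01 Mb) under DMSO and at ESF1 under LEN. The split gave TASP1 in both RNA-seq settings, TMX4 (7.98 Mb) in DGE under DMSO and ESF1 under LEN. A window of 15 genes moved it to TASP1 and a limit of -0.3 to NDUFAF5 (13.79 Mb). A window of 5 genes stopped at LINC01433 (4.19 Mb) and a limit of -0.7 at ITPA (3.21 Mb), where neighbours fell by less than the distal median, although genes beyond both places were again low. SLX4IP, TASP1 and ESF1 are shown because they flank the end. Their promoters (RefSeq, GRCh38.p14, 250 bases before to 50 after the start) are printed 5′ to 3′ on the gene's strand, with CpG dinucleotides in capitals.
SLX4IP, chr20:10435055-10435354, plus strand: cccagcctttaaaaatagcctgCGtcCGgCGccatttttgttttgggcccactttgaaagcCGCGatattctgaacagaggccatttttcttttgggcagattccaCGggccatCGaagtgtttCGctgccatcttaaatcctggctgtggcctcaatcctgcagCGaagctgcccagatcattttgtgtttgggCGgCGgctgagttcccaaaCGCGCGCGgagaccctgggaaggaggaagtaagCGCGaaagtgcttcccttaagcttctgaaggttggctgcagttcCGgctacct
TASP1, chr20:13638883-13639182, minus strand: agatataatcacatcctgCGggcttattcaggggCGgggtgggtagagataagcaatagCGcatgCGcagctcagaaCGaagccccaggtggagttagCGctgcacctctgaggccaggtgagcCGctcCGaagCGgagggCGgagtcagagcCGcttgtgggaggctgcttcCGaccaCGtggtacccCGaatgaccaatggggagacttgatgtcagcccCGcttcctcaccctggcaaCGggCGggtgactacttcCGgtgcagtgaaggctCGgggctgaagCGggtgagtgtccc
ESF1, chr20:13784870-13785169, minus strand: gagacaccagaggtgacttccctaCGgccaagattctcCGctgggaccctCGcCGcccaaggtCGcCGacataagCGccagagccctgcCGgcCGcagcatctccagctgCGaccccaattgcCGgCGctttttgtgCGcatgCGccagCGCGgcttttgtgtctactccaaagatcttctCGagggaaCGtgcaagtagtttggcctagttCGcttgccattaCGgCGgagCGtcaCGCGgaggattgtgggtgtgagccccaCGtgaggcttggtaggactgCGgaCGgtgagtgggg
They hold 18, 20 and 27 CpG. The promoter table held 96 of the 136 members. The 71 promoters of 50 distal genes had a median of 25 CpG and the 62 promoters of 46 proximal genes one of 25.5, against 14 over all 35116 promoters of that length. Unlike the members, those were not limited to genes with enough counts. The AP-1 motif TGANTCA, which reads the same on both strands, was in 2 of the 71 distal (2.82%) and 5 of the 62 proximal promoters (8.06%). It was in 7.71% of all promoters and in none of the 3 shown, and with so few hits no difference is read.

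Within the distal stretch the change was even. Of its 71 genes, 69 had a negative PRO-seq change, and the middle of them ran between -0.96 and -0.64 (quartiles). In 64 of the 71, all 3 regrown libraries lay below all 3 parental ones, which 22.8% of all genes did, as against 13 of the 65 proximal genes. Since this contrast set the boundary, nothing is read from these counts. Changes of 51 genes were within 0.3 of the distal median. The distal median was -0.79 in pool 1, -0.78 in pool 2 and -0.93 in pool 3, set against the parental mean, and single parental libraries were at -0.02 to 0.03. The change had little relation to gene length (Spearman's rho -0.11 over 71 genes of the same libraries) and was somewhat smaller further from the telomere (rho 0.39). Distal and proximal genes were alike in length (medians of 15.0 and 18.0 kb) and in level per length (2.10 and 2.39 CPM per kb), and lay on the plus and minus strands 36 and 35 times, and 33 and 32 times. Only 2 distal genes were above parental, FTLP3, a ferritin pseudogene that can take reads of the functional gene (0.10), and ENSG00000275632 (0.15).

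The same genes were then read in RNA-seq libraries, which the rule did not use. Of the 136 members, 106 passed the filter on low counts in WT cells. Among the 58 distal genes tested, 50 were lower and 2 higher in regrown cells by edgeR's quasi-likelihood test (adjusted p under 0.05), where 21.1% of all genes were lower and 22.6% higher. Their median was -0.96, or 51.3% of the parental level, against 0.00 over all genes. Of the 48 proximal genes tested, 14 were lower and 4 higher, and their median was -0.15. KO cells, whose libraries are separate, gave 50 lower and 2 higher of 57 distal genes, where 19.8% of all genes were lower and 18.6% higher, with a median of -1.14 (45.3% of parental). There 11 of 47 proximal genes were lower and 0 higher, with a median of -0.12. Of the 56 distal genes tested in both, 45 were lower in both, which is 90.0% of each list of calls. Among the 47 proximal genes tested in both, 6 were, or 42.9% of the WT and 54.5% of the KO calls. WT and KO libraries share the regrown pools, and the share of all genes lower in both was not counted, so the overlap is a description. Of the 13 distal genes not tested in WT cells, ENSG00000286787 had no row in the RNA-seq table and the others were below the filter. The 13 were mostly non-coding RNAs and pseudogenes, with SDCBP2, SIRPG, SPEF1 and TMEM239 the coding ones.

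NSFL1C, the gene of the p97 cofactor p47, shows the common pattern. It had 63.1, 64.8 and 68.0 CPM in regrown and 155, 153 and 166 CPM in parental WT libraries, and 73.3, 75.9 and 74.3 CPM in regrown and 163, 181 and 174 CPM in parental KO libraries. The groups were far apart in both settings, and the change was -1.22 ± 0.09 (standard error) in WT cells (edgeR adjusted p = 1.09e-07) and -1.23 ± 0.07 in KO cells (adjusted p = 4.36e-06). CSNK2A1 itself moved with its neighbours, at -0.99 ± 0.08 and -0.93 ± 0.07.

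The library shares of RNA-seq and DGE show the same. Distal genes made up 37.6% to 38.4% of the summed CPM of all members in regrown WT libraries, against 51.8% to 52.5% in parental WT libraries. The shares were 37.8% to 38.1% in regrown KO against 53.3% to 54.1% in parental KO libraries, and 31.6% to 33.5% in regrown against 44.8% to 47.2% in parental PRO-seq libraries. In DGE they were 29.8% to 31.0% in regrown against 43.6% to 44.1% in parental DMSO libraries. No regrown library reached the lowest parental library of its own assay and treatment. PRO-seq set the boundary of the distal genes, so its shares had to differ and nothing is read from them. The summed CPM of the distal genes was 1778 ± 30.3 in regrown WT and 3571 ± 60.2 in parental WT cells (SD, n = 3 each), while that of the proximal genes was 2896 ± 96.8 in regrown WT and 3278 ± 9.19 in parental WT cells.

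**Figure D2:**
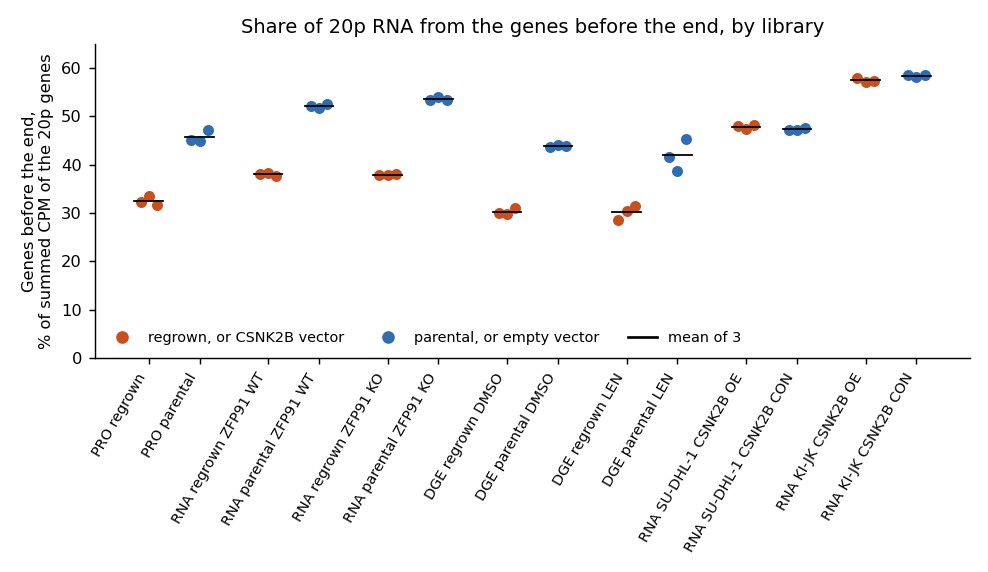
Share of the summed CPM of the 20p genes that came from the distal genes (%), one point per library and a line at the mean of 3; orange is regrown or CSNK2B vector and blue parental or empty vector. Regrown libraries sit between 28.5% and 38.4% and parental SU-DHL-1 libraries between 38.7% and 54.1%, each below its own parental group. PRO-seq set the boundary of the distal genes, so its points are a description.

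The fall ran through every role list in the distal stretch. Of the 5 genes for ubiquitin and the proteasome, all fell in both RNA-seq settings, by a median of -0.89 in WT and -1.21 in KO cells. They include PSMF1, a proteasome inhibitor gene (-0.86 ± 0.10 in WT cells), RBCK1, which encodes the HOIL-1 subunit of the linear ubiquitin ligase (-0.80 ± 0.12), and DDRGK1, a gene of the UFM1 pathway (-0.89 ± 0.10). RBCK1 was -0.44 and no longer called in WT cells once each library's level of short against long genes was a covariate. All 4 distal genes for RNA processing and translation fell in both settings. SNRPB, a core splicing factor, had 100, 116 and 71.6 CPM in regrown and 296, 314 and 384 CPM in parental WT libraries (-1.73 ± 0.15, adjusted p = 4.94e-07). In KO cells it had 198, 174 and 172 CPM in regrown and 191, 412 and 314 CPM in parental libraries, where 1 parental library lay among the regrown ones (-0.76 ± 0.22), and its call there was lost when parental KO replicate 3 or any regrown KO replicate was left out. MRPS26, a mitochondrial ribosome gene, fell by 1.28 ± 0.15 in WT cells.

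Of 6 distal genes for replication, repair and mitosis, 5 fell in WT cells. CENPB, which binds centromere repeats, had 34.6, 28.9 and 32.0 CPM in regrown and 93.6, 83.4 and 87.5 CPM in parental WT libraries (-1.41 ± 0.11, adjusted p = 1.65e-07). ITPA, which cleans the nucleotide pool of inosine, fell by 1.46 ± 0.12, and MCM8, a homologous recombination helicase gene, by 0.81 ± 0.10. Among the 6 immune genes tested 5 fell in WT and all 6 in KO cells. SIRPA, an inhibitory receptor for CD47, had 5.87, 6.15 and 6.88 CPM in regrown and 21.3, 20.0 and 20.3 CPM in parental WT libraries, well apart (-1.65 ± 0.16). MAVS, the mitochondrial adaptor of RNA sensing, had 156, 130 and 170 CPM in regrown and 249, 233 and 207 CPM in parental WT libraries (-0.54 ± 0.11, adjusted p = 0.00146).

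Mitochondrial and metabolic genes fell in 6 of 7 cases in WT and in all 7 in KO cells. IDH3B, a subunit gene of mitochondrial isocitrate dehydrogenase, was at -1.13 ± 0.10 in WT cells, and SRXN1, which repairs oxidised peroxiredoxins, at -0.88 ± 0.16, with -0.79 and no call once the level of short against long genes was a covariate. All 5 tested genes for membrane traffic fell in WT cells, such as TMEM230 (-0.84 ± 0.10) and AP5S1, an adaptor complex gene (-0.63 ± 0.15). All 6 genes for signalling, adhesion and development fell in both settings, with PRNP, the prion protein gene, changed least (-0.36 ± 0.12 in WT cells, with calls lost when any parental WT replicate or regrown WT replicate 2 was left out). For transcription and chromatin, 3 of 4 fell, with ZCCHC3, a nucleic acid sensor cofactor (-1.78 ± 0.15), and SOX12, an HMG-box factor (-0.96 ± 0.11), and 1 rose.

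**Figure D3:**
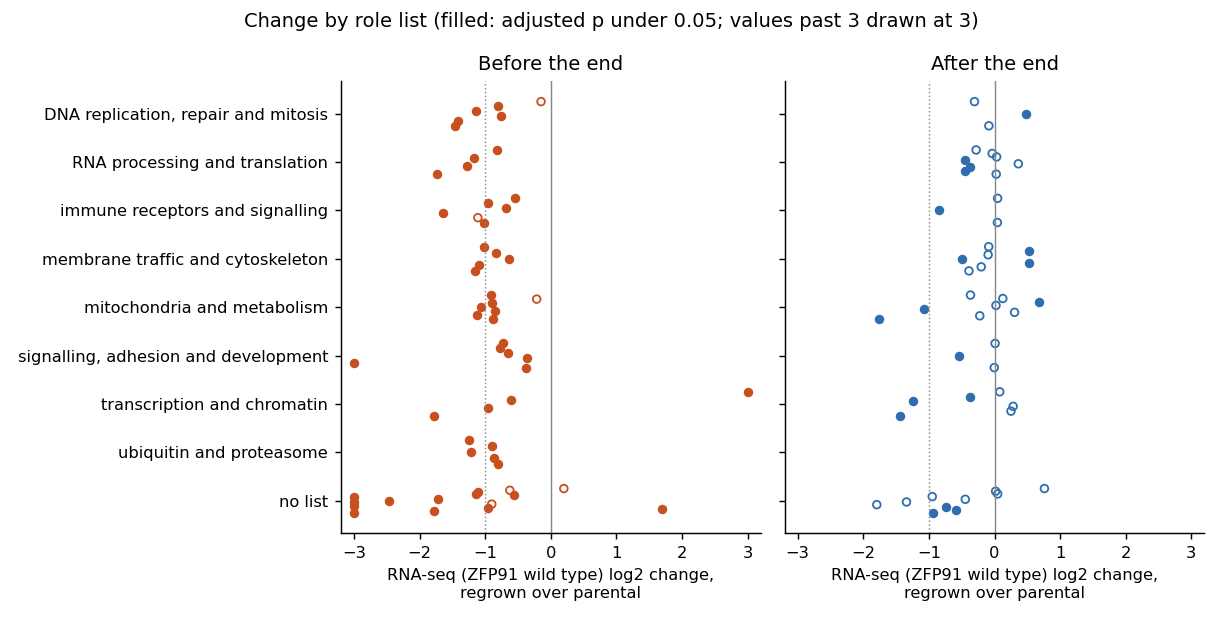
RNA-seq log2 change in WT cells, regrown over parental, for the distal (left, orange) and proximal (right, blue) genes by role list; filled circles passed adjusted p under 0.05, values past 3 are drawn at 3, and the dotted line marks -1. In every list most distal genes lie below 0, and proximal genes lie on both sides of 0.

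Some distal genes went far beyond the shared fall. SLC4A11, a membrane transporter gene, had no count in the 3 regrown WT libraries against 2.40, 3.14 and 3.78 CPM in the parental ones, and was at least 58.2-fold lower in WT and at least 61.9-fold lower in KO cells, taking 3 counts over the group as the floor. In PRO-seq it stood at 0.06 to 0.13 CPM in regrown and 6.13 to 8.21 CPM in parental libraries. CPXM1, a carboxypeptidase-like gene, had 2 counts in regrown WT libraries against 499 in parental ones, a ratio of 249 (95% counting interval 68.6 to 2062). SNPH, the gene of the mitochondrial anchor syntaphilin, had 0 counts against 97 and was at least 32.3-fold lower. GNRH2 had 2 counts in regrown against 51 in parental WT libraries (ratio 25.4, interval 6.69 to 216), although its PRO-seq change was -0.75. C20orf96 was at -3.54 ± 0.32 in RNA-seq WT and -2.49 in PRO-seq. These 5 were picked as the largest falls in RNA-seq WT, so nothing is read from their regrown and parental WT libraries lying wholly apart. Intervals and floors cover counting error only.

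A pair of genes went against the fall in RNA although their PRO-seq changes were negative. NRSN2, a neuronal vesicle protein gene, had 11, 10.5 and 11.7 CPM in regrown and 4.05, 2.85 and 3.78 CPM in parental WT libraries (1.69 ± 0.21, adjusted p = 2.02e-05), and rose in KO cells as well (1.15 ± 0.27). EBF4, an early B-cell factor family gene, had 2.78, 0.962 and 2.22 CPM in regrown and 0.114, 0.057 and 0.339 CPM in parental WT libraries (3.51 ± 0.69, adjusted p = 0.000902), and rose by 2.78 ± 0.65 in KO cells. In PRO-seq these 2 genes were at -0.46 and -0.54, with EBF4 at 22, 21.2 and 6.09 CPM in regrown and 27.6, 22.8 and 21.2 CPM in parental libraries, so that pool 3 carried most of its PRO-seq fall and pools 1 and 2 reached the lower parental values. The WT call of EBF4 was lost with the level of short against long genes as a covariate, at 3.48. In all, 20 members overlap a row on the other strand, and whether the RNA-seq counting used strand is not stated, so reads of such pairs cannot be told apart. CPXM1 and EBF4, near neighbours whose RNA moved in opposite directions, have these promoters (RefSeq, GRCh38.p14, 5′ to 3′, CpG in capitals).
CPXM1, chr20:2800578-2800877, minus strand: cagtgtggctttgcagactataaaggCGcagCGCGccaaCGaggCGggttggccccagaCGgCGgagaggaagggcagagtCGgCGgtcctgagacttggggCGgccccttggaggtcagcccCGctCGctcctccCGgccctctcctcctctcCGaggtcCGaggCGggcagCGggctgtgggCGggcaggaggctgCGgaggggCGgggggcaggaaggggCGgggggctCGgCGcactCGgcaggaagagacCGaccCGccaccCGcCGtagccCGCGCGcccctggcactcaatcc
EBF4, chr20:2692530-2692829, plus strand: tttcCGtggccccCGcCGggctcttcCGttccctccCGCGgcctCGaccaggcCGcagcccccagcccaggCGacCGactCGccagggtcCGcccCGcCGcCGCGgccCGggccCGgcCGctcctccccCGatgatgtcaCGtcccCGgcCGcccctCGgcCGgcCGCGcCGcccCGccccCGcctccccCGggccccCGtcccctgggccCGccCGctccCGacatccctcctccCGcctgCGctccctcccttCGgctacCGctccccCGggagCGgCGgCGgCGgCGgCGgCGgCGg
They hold 31 and 48 CpG, and neither holds TGANTCA.

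**Figure D4:**
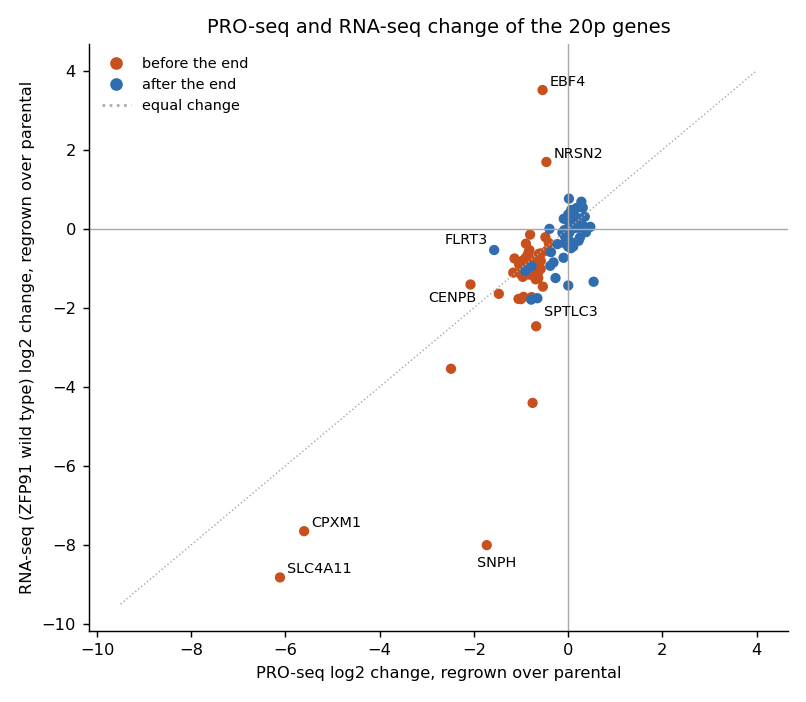
PRO-seq against RNA-seq (WT) log2 change, regrown over parental, of the 106 members tested in RNA-seq; orange is distal, blue proximal and the dotted line marks equal change. SNPH and SLC4A11 had no count in regrown RNA-seq libraries, so their fitted places depend on the prior count. Most distal genes form a cloud near -0.84 and -0.96, with CPXM1, SLC4A11 and SNPH far below it and NRSN2 and EBF4 above 0 in RNA-seq.

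Across the 58 distal genes the PRO-seq and RNA-seq changes had a Pearson's r of 0.79 and a Spearman's rho of 0.53, a description over genes that share their cell pools and in which SLC4A11 and CPXM1 weigh heavily. The remaining 6 distal genes without a call in WT cells were SLX4IP (-0.15 ± 0.17), GPCPD1 (-0.22 ± 0.14), SIRPB1 (-1.11 ± 0.67), SDCBP2-AS1 (-0.90 ± 0.38), PANK2-AS1 (-0.62 ± 0.85) and ENSG00000275632 (0.20 ± 0.73). SLX4IP had 16.9, 13.6 and 19.3 CPM in regrown and 22.4, 17.8 and 17.3 CPM in parental WT libraries, which overlapped, but 7.04, 6.51 and 9.66 CPM in regrown and 22.2, 15.1 and 18.0 CPM in parental KO libraries, which did not (-1.27 ± 0.20, adjusted p = 0.000922).

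**Figure D5:**
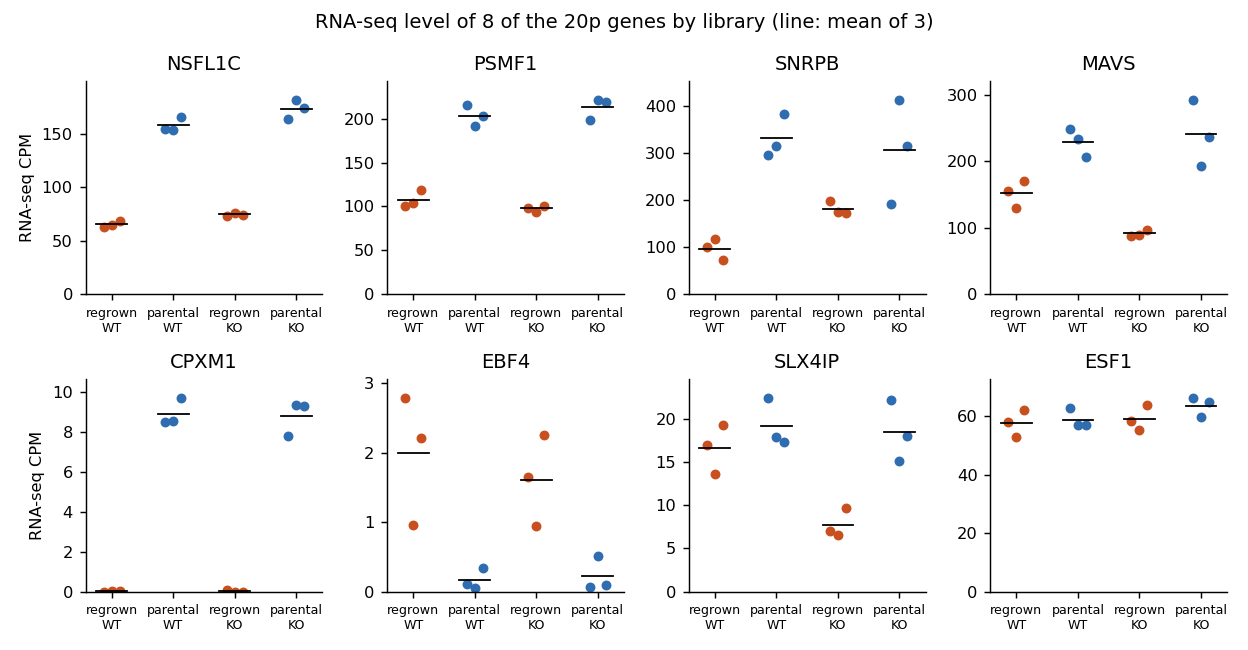
RNA-seq CPM of 8 of the 20p genes in each library (points) with the mean of 3 (line), for regrown and parental WT and regrown and parental KO cells; each panel starts at 0. NSFL1C and PSMF1 show the common fall, CPXM1 is near 0 in regrown cells, EBF4 is higher in them, SLX4IP falls in KO cells and ESF1, past the end, overlaps between groups.

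Some proximal genes fell as well, and by the RNA-seq splits the first of them was still part of the run. SPTLC3 was the first, with 46.7, 61.2 and 33.4 CPM in regrown and 173, 172 and 152 CPM in parental WT libraries (-1.76 ± 0.16, adjusted p = 7.68e-07), a larger change than in PRO-seq. TASP1 (-0.00 ± 0.15), ESF1 (0.03 ± 0.10) and NDUFAF5 (-0.22 ± 0.15) did not pass the test in WT cells. FLRT3, an adhesion receptor gene, had 34.3, 36.5 and 32.3 CPM in regrown and 54.5, 53.3 and 47.8 CPM in parental WT libraries (-0.54 ± 0.10) and had the largest fall of the proximal genes in PRO-seq (-1.57). NKX2-2, a homeobox factor gene, was at -1.25 ± 0.15, and ACSS1, a mitochondrial acetate-activating enzyme gene, at -1.07 ± 0.13 with -0.90 in PRO-seq. The 4 that rose in WT cells were RRBP1, a ribosome receptor gene (0.53 ± 0.11), RALGAPA2, a Ral inhibitor gene (0.53 ± 0.10), KIZ, a centrosome gene (0.47 ± 0.14), and PYGB, brain glycogen phosphorylase (0.68 ± 0.13). None of these 4 rose in KO cells.

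DGE was shallower, and 58 of the 101 members it lists could be tested under DMSO. Of 31 distal genes, 30 had a negative change and 11 were called lower by edgeR, where 3.3% of all genes were, with a median of -0.90 (53.6% of parental). In 22 of the 31 the regrown libraries lay wholly below parental ones, which 11.7% of all genes did. ITPA had 34.2, 46.0 and 21.9 CPM in regrown and 144, 86.9 and 141 CPM in parental DMSO libraries (-1.82 ± 0.32, adjusted p = 0.00045), and PCED1A 42.7, 70.4 and 69.3 against 164, 159 and 214 CPM (-1.57 ± 0.27). The 12 members called lower became 7 by DESeq2, and leaving out 1 library gave 7 for regrown replicate 2, 6 for parental replicate 1 and 5 for parental replicate 2. Of 27 proximal genes, FLRT3 was called lower (-2.27 ± 0.54) and CST7, an inhibitor of granule proteases, higher (1.07 ± 0.28), where 2.91% of all genes were higher. Under LEN the distal median was -0.67, with 20 of 22 negative. None was called by edgeR or DESeq2, where edgeR called 1.57% of all genes lower. By edgeR 10 had an unadjusted p under 0.05, and the share of all genes at that level was not counted. This contrast included a parental library of 41571 counts and regrown libraries of 122167 and 132406 counts. The regrown effect under LEN and DMSO was compared by an interaction term, which called 0 of 61 members and 0.0% of all genes by edgeR, with 0 at an unadjusted p under 0.05.

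For lenalidomide itself no member passed the threshold. In regrown cells 0 of 48 members were called for LEN against DMSO (0.23% of all genes), 1 had an unadjusted p under 0.05 (PCED1A, 0.87 ± 0.37) and DESeq2 called none. In parental cells 0 of 58 were called (0.845% of all genes), 5 had an unadjusted p under 0.05, led by GINS1, a replication fork gene (-0.91 ± 0.34), and PRNP (-0.66 ± 0.25), and DESeq2 again called none.

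The ZFP91 guide was compared within each cell state. In parental cells 1 of 108 members was called for KO against WT (0.427% of all genes), SPTLC3, with 99.5, 66.2 and 81.0 CPM in KO and 173, 172 and 152 CPM in WT libraries (-0.998 ± 0.15, adjusted p = 0.0292). It lost its call without any single WT replicate or KO replicate 3. With each library's level of short against long genes as a covariate, 5 members were called lower and 7 higher. In regrown cells 15 members were lower and 14 higher in KO than in WT libraries, of 99 tested, close to the 15.7% and 16.3% of all genes. CST3 rose to 163, 159 and 160 CPM in KO, against 68.9, 89.9 and 71.2 CPM in WT libraries (1.04 ± 0.09), SNRPB rose by 0.89 ± 0.13, and MAVS, RRBP1 and ATRN, an attractin gene, fell by 0.77 ± 0.10, 0.76 ± 0.10 and 0.61 ± 0.09. These libraries differed in the balance of short and long genes. The median log2 level of the shortest genes minus that of the longest was -0.27, -0.15 and -0.45 in regrown WT libraries, 0.16, 0.16 and 0.08 in regrown KO libraries, and -0.21 to 0.35 in all parental libraries. With this score as a covariate none of the 29 calls remained. The scores of regrown KO and regrown WT libraries did not overlap, so this fit cannot tell the guide from the balance of short and long genes. Without regrown KO replicate 2, and without the covariate, there were 18 calls. The scores of regrown and parental libraries did not overlap in WT cells, where 41 of 58 distal genes were called lower with the covariate and their median was -0.95. They did overlap in KO cells, where 51 of 57 were called lower with it and the median was -1.15.

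The regrown effect differed between KO and WT cells for 11 of 110 members by the interaction term (9.81% of all genes), 9 with a lower and 2 with a higher effect in KO cells. This fit did not pair regrown libraries of the same pool. The split became 7 and 4 with library size only and 10 and 10 with no filter. SLX4IP, CDC25B, a mitotic phosphatase gene, and STK35, a kinase gene, were among those with the deeper fall in KO cells.

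The CSNK2B vector changed few 20p genes in SU-DHL-1 and more in KI-JK, close to the share of all genes in each line. In SU-DHL-1, 6 of 113 members were called (6.74% of all genes). CD93, a lectin-like receptor gene, had 334, 331 and 333 CPM with the CSNK2B vector and 392, 393 and 390 CPM with the empty vector (-0.24 ± 0.03, adjusted p = 3.95e-05), and PRNP rose by 0.17 ± 0.04. The count was 3 without empty-vector replicate 1 and without CSNK2B vector replicate 2. In KI-JK 17 members were lower and 23 higher of 97 tested, where 17.3% and 18.4% of all genes were. PCED1A fell (-0.35 ± 0.04), EBF4 fell (-0.87 ± 0.11) and PSMF1 rose (0.34 ± 0.04). Distal genes held 47.3% to 48.1% of summed member CPM with the vector and 47.2% to 47.6% with the empty vector in SU-DHL-1, and 57.1% to 57.9% with the vector and 58.1% to 58.6% with the empty vector in KI-JK.

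Many 20p products work in complexes whose other subunits lie elsewhere. Of 50 such partners in 15 complexes, 48 were tested in RNA-seq WT, and 12 were lower and 14 higher in regrown cells, with a median of 0.04, where 43.7% of all genes were called. For isocitrate dehydrogenase, IDH3B was at -1.13, IDH3A at 0.67 ± 0.09 and IDH3G at -0.50 ± 0.11. In KO cells IDH3A was at 0.41 ± 0.08, and IDH3G at 0.20 ± 0.11 without a call. For the spliceosome's Sm ring, SNRPB was at -1.73, and 5 of 6 partners fell by less, with SNRPE at -0.72 ± 0.22 and SNRPF at -0.69 ± 0.16, while in KO cells all 6 stood between 0.12 and 0.52. The balance of short and long genes given above moved with the regrown WT libraries, and its part in these falls was not tested. For the GINS complex GINS1, past the end, was at -0.31 ± 0.12 without a call, while GINS2 fell by 1.33 ± 0.10 and GINS3 rose by 1.01 ± 0.09. VPS16, a distal subunit gene shared by the HOPS and CORVET tethers, fell by 1.1 ± 0.10. Of its partners, VPS39 of HOPS rose by 0.43 ± 0.10 and VPS8 of CORVET by 1.37 ± 0.14, while VPS11, VPS18, VPS33A and VPS41 were at 0.08, 0.23, -0.27 and 0.05 without a call. VPS8 lies at 184.8 Mb on chromosome 3. YEATS2, listed as a partner for the 20p gene KAT14, lies near VPS8 at 183.7 Mb and rose by 1.39 ± 0.09. PRO-seq put VPS8 at 0.85 and YEATS2 at 1.00, and a link of either rise to 20p was not tested. In KO cells VPS8 was again higher (0.92 ± 0.19), but VPS39 was at 0.10 ± 0.08 without a call and VPS18 was called lower (-0.86 ± 0.16). VPS11, VPS33A and VPS41 had no call there either.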

How the data were processed

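Gene counts of PRO-seq, RNA-seq and DGE libraries of cultured lymphoma cells were used as deposited, with groups taken from the sample labels. Per the submitters' processing notes, the deposited counts came from cutadapt 1.14, Bowtie 1.2.2 and featureCounts 1.6.2 on hg38 for PRO-seq, STAR 2.6.1d on hg38 for RNA-seq and Bowtie2 2.2.3 on hg19 for DGE, and the notes also name DESeq2 1.20.0 and edgeR 3.24.3. The RNA-seq counter and its strand setting, and how DGE handled molecular identifiers, are not given in the sources used here. Antisense pairs and near-identical copies can therefore share counts.

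Each contrast was fitted on its whole table with edgeR 4.0.16 (quasi-likelihood test, TMM scaling, filterByExpr, R 4.3.3), and p-values were adjusted over all genes by the Benjamini-Hochberg method. DESeq2 1.42.0, other scalings, no filter, a length covariate, a replicate block and leaving out each library were the alternatives. The test was also run on simulated counts with a constant dispersion, no shared pools and no shift by gene length. That setting is simpler than these data, so it does not vouch for the calls. The 136 genes, the role lists and the partner lists were chosen with earlier results of these data known, and PRO-seq changes set the end of the fall. Named were up to 3 genes a role list by level per length, the extremes in RNA-seq, the genes at the end of the fall, the leading calls of each further contrast and the leading partners, and other genes named were chosen after their values were seen. Regrown libraries with the same number come from the same pool per the labels, which pairs them in LEN against DMSO and in KO against WT, where their deviations correlated at -0.07 to 0.12 and at -0.00 to 0.17. The interaction terms did not use this pairing. Replicates of a group were all distinct, with a chi-square per degree of freedom of at least 1.36. Floors are 3 counts over a group and intervals are exact at 95%.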

Additional observations from a re-analysis of the deposited data

Results flagged for a closer look

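For 11 of 110 members tested the regrown effect differed between KO and WT cells by edgeR's interaction term (Benjamini-Hochberg adjusted p of 0.024 to 0.044). The same term called 9.81% of all genes, so the count is close to that share and does not set the members apart. Regrown libraries of the same pool were not paired in this fit. The effect in KO cells minus that in WT cells, in log2 units, was -1.39 for CDC25B, -1.09 for SLX4IP, -0.86 for STK35, -0.86 for MAVS, -0.85 for RRBP1, -0.84 for PYGB, -0.60 for ATRN, -0.58 for VPS16 and -0.49 for CENPB. It was 1.15 for CST3 and 0.99 for SNRPB. CDC25B had 6.18, 6.09 and 6.57 CPM in regrown KO against 28.3, 24.4 and 31.1 CPM in parental KO libraries, and 17.5, 8.12 and 20.9 CPM in regrown WT against 25.7, 29.1 and 26.9 CPM in parental WT libraries. The level of short against long genes moved with the same libraries, and its part in these differences was not tested.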

How the results depend on the processing

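The distal PRO-seq median stayed between -0.89 and -0.77 when each library was left out (-0.84 with all), and the end of the fall between 12.94 and 13.71 Mb. A window of 5 genes put the end at 4.19 Mb and a limit of -0.7 at 3.21 Mb. Leaving out each library, members called lower numbered 55 to 64 in RNA-seq WT (64 with all), 54 to 63 in KO (61) and 5 to 11 in DGE DMSO (12; DESeq2 7). In DGE LEN they were 0 to 2 (1; DESeq2 0, replicate block 0). Members called in parental KO against WT were 0 to 1 (1), 2 with no filter, 2 by DESeq2 and 12 with the length covariate. Those in regrown KO against WT were 18 to 40 (29), and 32 with the replicate block that pairs the pools. They were 0 with the length covariate, whose values did not overlap between these groups. Those for the CSNK2B vector were 3 to 6 in SU-DHL-1 (6) and 28 to 40 in KI-JK (40). The interaction of regrown state with guide gave 20 with no filter (11). Elsewhere numbers are not known to pair libraries, and the block gave 63 lower in RNA-seq WT, 56 in KO and 15 in DGE DMSO. Over 155 results of single genes, 1648 of 1751 alternatives kept the call, 77 lost one, 26 gained one and 0 reversed. In DGE under DMSO 78 members were untested, those with no row in its table included. The causes were not tested.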
